A study of Mus musculus with 144 samples.

Results

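A set of 9 interferon-stimulated genes, of the 55359 genes counted, was followed through all libraries of the series: Ifit1, Ifit3, Isg15, Irf7, Oasl2, Rsad2, Usp18, Irf1 and Bst2. They were chosen by name and read from the count tables through their Ensembl identifiers. Primary hepatocytes, the parenchymal cells of the liver, had been isolated from male mice aged 28 days, left to attach, and given 10 nM TCDD, a chlorinated dioxin and the prototype ligand of the aryl hydrocarbon receptor (AHR), or dimethyl sulfoxide as vehicle. Both treatments were harvested at 9 time points between 2 and 120 h, with 4 libraries in each of the 36 groups of label, treatment and hour. The label WT stands for C57BL/6NCrl mice. The label Pkm-delta-DRE stands for mice homozygous for a CRISPR deletion that removed an intronic dioxin response element (DRE, the AHR's core motif) from Pkm, the pyruvate kinase M gene, and whose founders had been backcrossed to C57BL/6N. All groups shared the culture medium with dexamethasone and insulin, transferrin and selenium, and the labels name neither interferon nor virus for any group. The labels do not say which libraries came from separate animals or cultures, so the p-values below measure only the spread between these libraries. Libraries are named by group and by a replicate number in the order of deposit, which the labels do not tie across groups.

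Type I interferons bind the receptor pair IFNAR1 and IFNAR2, whose kinases JAK1 and TYK2 start the signal. A complex that holds STAT2 and IRF9 then binds the interferon-stimulated response element (ISRE) of target genes, while interferon gamma acts on the gamma-activated sequence (GAS). In the liver, hepatocytes and the resident macrophages (Kupffer cells) both carry the type I receptor. The genes have separate tasks. Ifit1 and Ifit3 encode RNA-binding proteins that hold back viral translation, Rsad2 encodes viperin, an antiviral radical SAM enzyme, and Oasl2 belongs to the oligoadenylate synthetase family. Isg15 encodes a ubiquitin-like modifier and Usp18 the protease that removes it and damps receptor signalling. Irf7 and Irf1 encode transcription factors, and Bst2 encodes tetherin, a membrane protein that holds budding virions.

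The promoters are shown because the ISRE is the element through which type I interferon acts on such genes. RefSeq windows of 250 bases before to 50 bases after the start (build GRCm38.p6) were found for 8 of the 9 genes, and Irf1 had 2 listed starts. Each line gives the 160 bases that end just before the start, 5′ to 3′ on the strand of the gene. Capitals mark the ISRE letters used here, GAAA, 2 free bases and GAAA, or their reverse complement, and in the Irf1 line the GAS letters, TTC, 3 free bases and GAA. The GAS match of Bst2 runs into its first ISRE match and is not marked.
Ifit1: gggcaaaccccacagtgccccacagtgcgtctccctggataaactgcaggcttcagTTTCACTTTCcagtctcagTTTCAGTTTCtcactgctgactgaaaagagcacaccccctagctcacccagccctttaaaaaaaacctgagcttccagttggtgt
Ifit3: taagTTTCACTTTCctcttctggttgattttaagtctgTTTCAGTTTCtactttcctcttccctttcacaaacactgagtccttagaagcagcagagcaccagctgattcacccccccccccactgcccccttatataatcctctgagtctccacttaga
Isg15: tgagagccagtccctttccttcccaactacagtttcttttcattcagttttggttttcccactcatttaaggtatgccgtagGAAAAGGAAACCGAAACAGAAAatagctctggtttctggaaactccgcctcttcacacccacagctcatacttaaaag
Rsad2: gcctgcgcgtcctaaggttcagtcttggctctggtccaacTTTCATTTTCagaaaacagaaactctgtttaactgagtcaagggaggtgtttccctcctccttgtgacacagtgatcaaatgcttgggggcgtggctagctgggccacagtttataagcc
Bst2: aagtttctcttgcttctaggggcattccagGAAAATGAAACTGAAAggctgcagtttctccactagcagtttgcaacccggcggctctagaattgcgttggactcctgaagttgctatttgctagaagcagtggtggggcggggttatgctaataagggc
Irf1: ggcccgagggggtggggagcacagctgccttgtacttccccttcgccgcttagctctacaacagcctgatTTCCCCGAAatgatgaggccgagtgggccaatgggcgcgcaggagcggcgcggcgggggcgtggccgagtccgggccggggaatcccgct
The stretches lie at chr19:34640729-34640888 (+ strand) for Ifit1, chr19:34583369-34583528 (+ strand) for Ifit3, chr4:156200819-156200978 (- strand) for Isg15, chr12:26456453-26456612 (- strand) for Rsad2, chr8:71537473-71537632 (- strand) for Bst2 and chr11:53769854-53770013 (+ strand) for Irf1.

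The ISRE letters were present, on either strand, in 5 of 8 genes (62.5%), against 3.99% of all 27025 genes with a window and 3.44% of all 32851 windows. Ifit1 held 2 separate matches, Ifit3 held 2, Isg15 held 3 that overlap in 1 run, Rsad2 held 1, and Bst2 held 2 that overlap. The windows of Irf7, Oasl2 and Irf1 held none of these letters. The GAS letters were found in Irf1 and in Bst2, where the match overlapped the first ISRE match, and in 8.3% of all windows. The DRE letters GCGTG were found in Rsad2, at both starts of Irf1, in Oasl2 behind the start and in Bst2 across the start, against 32.4% of all windows. A match is a description of letters and not a bound site.

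**Figure D1:**
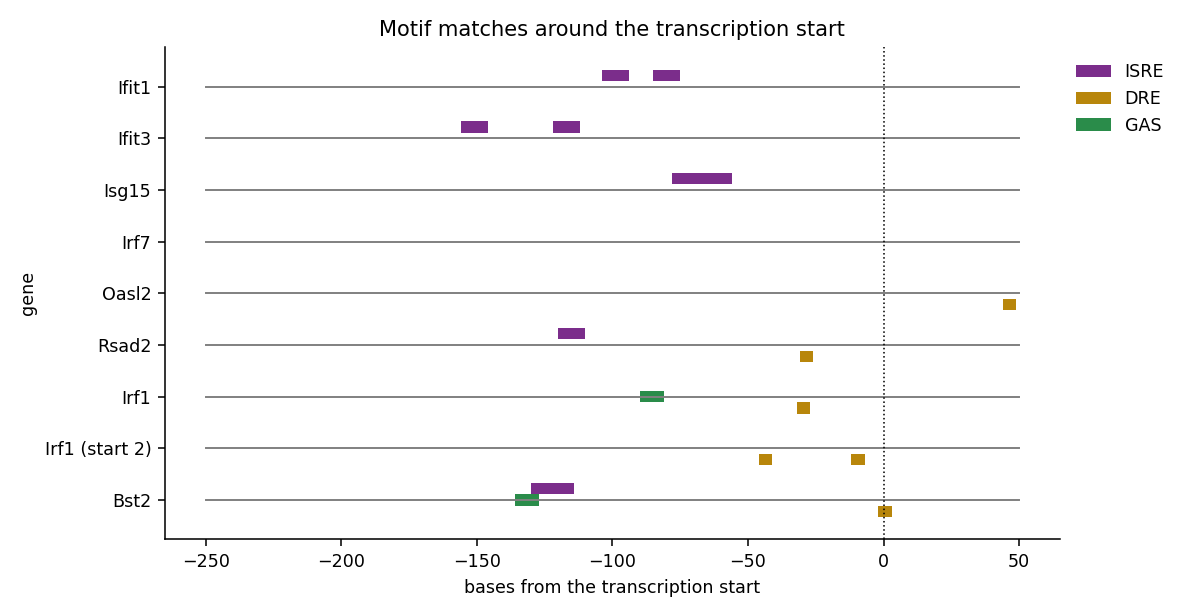
Positions of the ISRE, GAS and DRE letters in the promoter windows of the 8 genes with a RefSeq entry. The x axis gives bases from the transcription start, each line is 1 window and each block 1 match, so the ISRE matches of Ifit1, Ifit3, Isg15, Rsad2 and Bst2 all stand upstream of the start.

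Several libraries stood apart before any gene of this set was compared. Replicate 4 of Pkm-delta-DRE vehicle at 4 h correlated at r = -0.74 with the other libraries of its labelled hour and at 0.84 with those of 96 h, over 12243 genes. Replicate 4 of Pkm-delta-DRE vehicle at 96 h correlated at -0.73 with its labelled hour and at 0.83 with 4 h. The interferon-stimulated genes followed the same pattern. The 4 h library held 5.16 CPM (counts scaled to library size) of Isg15 where the nearest other library of its group held 115.5, and the 96 h library held 73.4 CPM of Rsad2 where the nearest other held 6.59. Over the series 23 libraries correlated best with an hour other than their own, and 3 of these, the pair above included, with one at least 2 sampled hours away. They were left in the groups their labels give, and their values at these hours are given below with and without them. The AHR target Cyp1a1 was at 2316 ± 1219 CPM (SD, n = 4) in TCDD and 2.99 ± 1.37 in vehicle in the libraries labelled WT at 8 h, but it was high in WT vehicle replicates 1 at 48 h and 3 at 96 h and low in WT TCDD replicates 4 at 2 h, 4 at 4 h and 4 at 72 h. Leaving out the 4 h library, at 10.17 CPM beside 126.5 to 324.7 in the others, made no call in the set. WT TCDD replicate 1 at 8 h had 23.64% of its pairs unmapped and 21.95% of its uniquely mapped pairs outside genes, both the highest of the series, and no 8 h call in the set was lost without it. WT TCDD replicate 1 at 96 h differed in its strand balance, with 63.34% of pairs on one strand where no other library passed 51.49%. Pkm was read as a check of the genotype labels, although the deleted element is intronic and gene counts show neither the deletion nor the Pkm isoforms, which the study followed by qRT-PCR (not analysed here). At 8 h it was at 45.6 ± 14.5 CPM in TCDD and 62.4 ± 16.5 in vehicle in the libraries labelled WT, and at 130 ± 27.2 and 54.9 ± 19.2 (SD, n = 4 each) in those labelled Pkm-delta-DRE. The higher TCDD level under the deletion label is not the order the labels imply, so the groups are named by their labels throughout. Whether the labels were exchanged was not settled, so a difference between labels below is not shown to be one of genotype. Albumin (Alb) was between 1967 and 171600 CPM over the libraries, and no T or NK cell marker was above 0 in the 8 h and 96 h WT groups. In other groups the T and NK cell markers summed to at most 0.38 CPM. B cell markers summed to as much as 2.11 CPM in WT TCDD at 8 h.

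In vehicle at 2 h the set spanned a wide range of levels. Per kilobase of exon, Bst2 was highest at 270 ± 45.1 CPM per kb (SD over 8 libraries of both labels), followed by Isg15 at 179 ± 47.1, Ifit3 at 120 ± 46.6 and Usp18 at 72.6 ± 29.6. Irf7 at 33.1 ± 5.27 and Rsad2 at 32.9 ± 15.9 were within their spread of each other. Ifit1 followed at 16.8 ± 9.12, Irf1 at 7.54 ± 3.36 and Oasl2 at 2.00 ± 0.49. The other neighbours differed by more than the larger SD of each pair. By 24 h the order had changed below Bst2, which was still at 254 ± 109.3 CPM per kb. Isg15, at 18.7 ± 13.3, could not be told from Irf7 at 16.98 ± 7.17 nor Irf7 from Usp18 at 11.9 ± 5.34, and Ifit3, Rsad2, Oasl2 and Ifit1 all lay between 0.73 and 2.35 CPM per kb, each within the spread of the next. Ifit3 shares long stretches of sequence with Ifit3b, and the Ifit and Oasl genes are families, so how reads were split among copies is uncertain.

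Most calls in the set came with time in culture. Between 2 and 24 h in vehicle the antiviral effectors Ifit1, Ifit3 and Rsad2 fell by factors from 10.2 to 65.9, Isg15 by 8.45 and 14.2 and Usp18 by 6.11 and 8.07 under the labels WT and Pkm-delta-DRE. In the libraries labelled WT, Ifit3 was at 138.8, 265.4, 265.1 and 124.3 CPM at 2 h and at 1.23, 3.07, 8.68 and 7.18 CPM at 24 h. Every 2 h library was far above every 24 h library, and the fold change was 46.2-fold lower (log2 -5.53, SE 0.55, edgeR's quasi-likelihood test, adjusted p = 7.2e-06). In those labelled Pkm-delta-DRE, Ifit3 went from 112.6, 250.6, 176.5 and 334.7 CPM to 3.81, 2.46, 3.27 and 3.05 CPM, 65.9-fold lower (log2 -6.04, SE 0.38, adjusted p = 5.28e-06). The groups were again far apart.

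Ifit1 was at 27.8, 38.7, 73.96 and 36.8 CPM at 2 h and at 1.96, 1.44, 5.86 and 0.91 CPM at 24 h in the libraries labelled WT. The 24 h libraries were 19.8-fold lower (log2 -4.31, SE 0.53, adjusted p = 3.94e-05), and in those labelled Pkm-delta-DRE 30.9-fold lower (log2 -4.95, SE 0.80, adjusted p = 0.00116). Neither pair of groups overlapped. Rsad2 went from 66.5, 128.2, 179.2 and 125.7 CPM to 2.38, 2.35, 10.3 and 5.36 CPM in the libraries labelled WT, 28.5-fold lower (log2 -4.83, SE 0.49, adjusted p = 8.38e-06). Under the label Pkm-delta-DRE, Rsad2 was 10.2-fold lower at 24 h (log2 -3.35, SE 0.60, adjusted p = 0.00201) and 44.2-fold lower at 120 h (log2 -5.47, SE 0.57, adjusted p = 1.29e-05). Its lowest mean came at 24 h under WT, at 5.09 ± 3.73 CPM, and as labelled at 120 h under Pkm-delta-DRE, at 4.07 ± 2.45 CPM (SD, n = 4 each). At 96 h under Pkm-delta-DRE, replicate 4, which correlated with 4 h, was at 73.4 CPM and the others at 6.59, 3.11 and 1.01 CPM. The hour of the lowest mean under that label therefore depends on that library.

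Isg15 and its protease had their lowest means at different hours, though the hour for Isg15 was not well set. Isg15 means went from 138.1 ± 50.03 CPM at 2 h to a lowest 12.5 ± 6.53 at 48 h under the label WT, and from 132.7 ± 20.9 to 9.001 ± 6.77 at 24 h under Pkm-delta-DRE. Under WT the 96 h mean, at 15.5 ± 8.92 CPM, was within the spread of 48 h. Under Pkm-delta-DRE the 12 h mean, at 10.6 ± 2.30 CPM, was within the spread of 24 h. At 96 h its libraries were at 12.8, 3.24 and 5.92 CPM, and at 72.3 CPM in replicate 4, which correlated with 4 h. Usp18 reached its lowest mean at 12 h, at 23.7 ± 3.21 CPM from 226 ± 116.5 under WT and at 7.67 ± 1.40 from 179 ± 30.4 under Pkm-delta-DRE (SD, n = 4 each). By 120 h Usp18 means were at 74.9 and 56.4 CPM, 33.2% and 31.4% of the 2 h level. Oasl2 was lowest at 8 h under WT, at 1.73 ± 0.83 CPM from 12.4 ± 1.39, and its 120 h mean of 15.5 ± 17.7 rested on replicate 3, at 41.2 CPM, with the others between 0.89 and 11.7 CPM.

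Under WT the transcription factors moved over a narrower range than the genes above. Irf7 was at 105.9, 162.0, 107.2 and 119.9 CPM at 2 h and at 49.6, 65.5, 96.5 and 80.4 CPM at 24 h under WT, 2.00-fold lower with no overlap (log2 -1.003, SE 0.22, adjusted p = 0.00241). At 120 h Irf7 was at 148.5 CPM in replicate 3 and between 18.6 and 42.9 CPM in the others. The test at 120 h gave log2 -1.23 (adjusted p = 0.0618) with that library, and log2 -2.13 (adjusted p = 0.000213) without it. Under Pkm-delta-DRE Irf7 was called lower at all 4 hours tested, from log2 -0.93 at 8 h to -2.50 at 120 h. Irf1 was called lower under WT at 72 h (log2 -0.74) and 120 h (log2 -0.69) and did not pass at 8 or 24 h, where it lay between 15.8 and 29.6 CPM at 2 h and between 17.9 and 21.9 CPM at 24 h, while under Pkm-delta-DRE it was lower at all 4 hours tested, from log2 -1.15 at 8 h to -1.80 at 120 h. Bst2 passed at no hour under WT, with log2 values from -0.53 to -0.17, and under Pkm-delta-DRE it was lower at 8 h (log2 -0.74) and at 120 h (log2 -1.002). The same replicate 3 at 120 h kept Ifit1 and Bst2 under WT from being called, at log2 -1.22 and -0.53 with it and -1.96 (adjusted p = 0.00128) and -0.89 (adjusted p = 0.00232) without it.

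Counted over the set, a gene was called where its adjusted p was under 0.05 and its fold change at least 1.5. Under the label WT, the numbers called lower of 9 were 5, 6, 7 and 5 after 8, 24, 72 and 120 h, against 19.5%, 24.4%, 25.9% and 26.9% of all genes tested. Under Pkm-delta-DRE, 9, 8, 7 and 9 were called lower, against 14.3%, 13.5%, 24.7% and 27.9%. No gene of the set was called higher at these hours, where 17.6%, 23.5%, 29% and 34.2% of all genes were under WT and 13.3%, 17.3%, 27.3% and 33.2% under Pkm-delta-DRE. The median log2 fold change of the set was -2.61 at 24 h under WT and -3.01 under Pkm-delta-DRE, where the median of all genes was 0.06 and 0.36. Leaving out any 1 library ended no call of Ifit1, Ifit3, Isg15, Rsad2 or Usp18. It ended calls of Irf7 (72 h) and Irf1 (72 and 120 h) under WT, and of Bst2 (8 and 120 h), Oasl2 (24 and 120 h), Irf7 (24 h) and Irf1 (8 h) under Pkm-delta-DRE, with adjusted p from 0.0540 to 0.131. With the fraction of pairs outside genes as a covariate, 11 calls were made under WT in place of 23 and 23 under Pkm-delta-DRE in place of 33, and the sign of 6 genes at 120 h under WT turned. That fraction was 4.62% to 5.51% at 2 h and 8.57% to 10.66% at 120 h in WT vehicle, without overlap. The covariate and time therefore cannot be told apart between those hours.

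Other cell markers moved over the same hours. From 2 to 24 h under WT, all 8 hepatocyte markers were lower without overlap, their sum going from 127700 to 170900 CPM down to 27970 to 39180 CPM. Of 11 macrophage markers 6 were lower without overlap, with sums of 232.8 to 388.9 CPM at 2 h and 101.9 to 167 CPM at 24 h, and 5 of 8 endothelial markers, with sums of 312.8 to 509.3 and 81.2 to 172.4 CPM. None of the markers in these 3 lists was at 0 in both groups. Stellate and fibroblast sums were 17.8 to 25.8 CPM at 2 h and 6.78 to 15.9 CPM at 24 h. Cholangiocyte sums went the other way, at 1.34 to 3.66 CPM and 6.87 to 13.96 CPM. Under Pkm-delta-DRE the cholangiocyte sums overlapped, at 1.88 to 8.51 CPM and 1.64 to 26.1 CPM. Under Pkm-delta-DRE the macrophage sum was 231.3 to 534 CPM at 2 h and 62.4 to 310.1 CPM at 24 h, with 5 of 11 lower without overlap. Of all genes tested, 24.4% were called lower at 24 h under WT and 13.5% under Pkm-delta-DRE. The share of all genes lower without overlap is not given here or below, so marker counts cannot be set against it. In such bulk libraries fewer cells of a type and less RNA per cell cannot be told apart, and the part of these marker shifts in the fall of the interferon-stimulated genes was not tested.

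**Figure D2:**
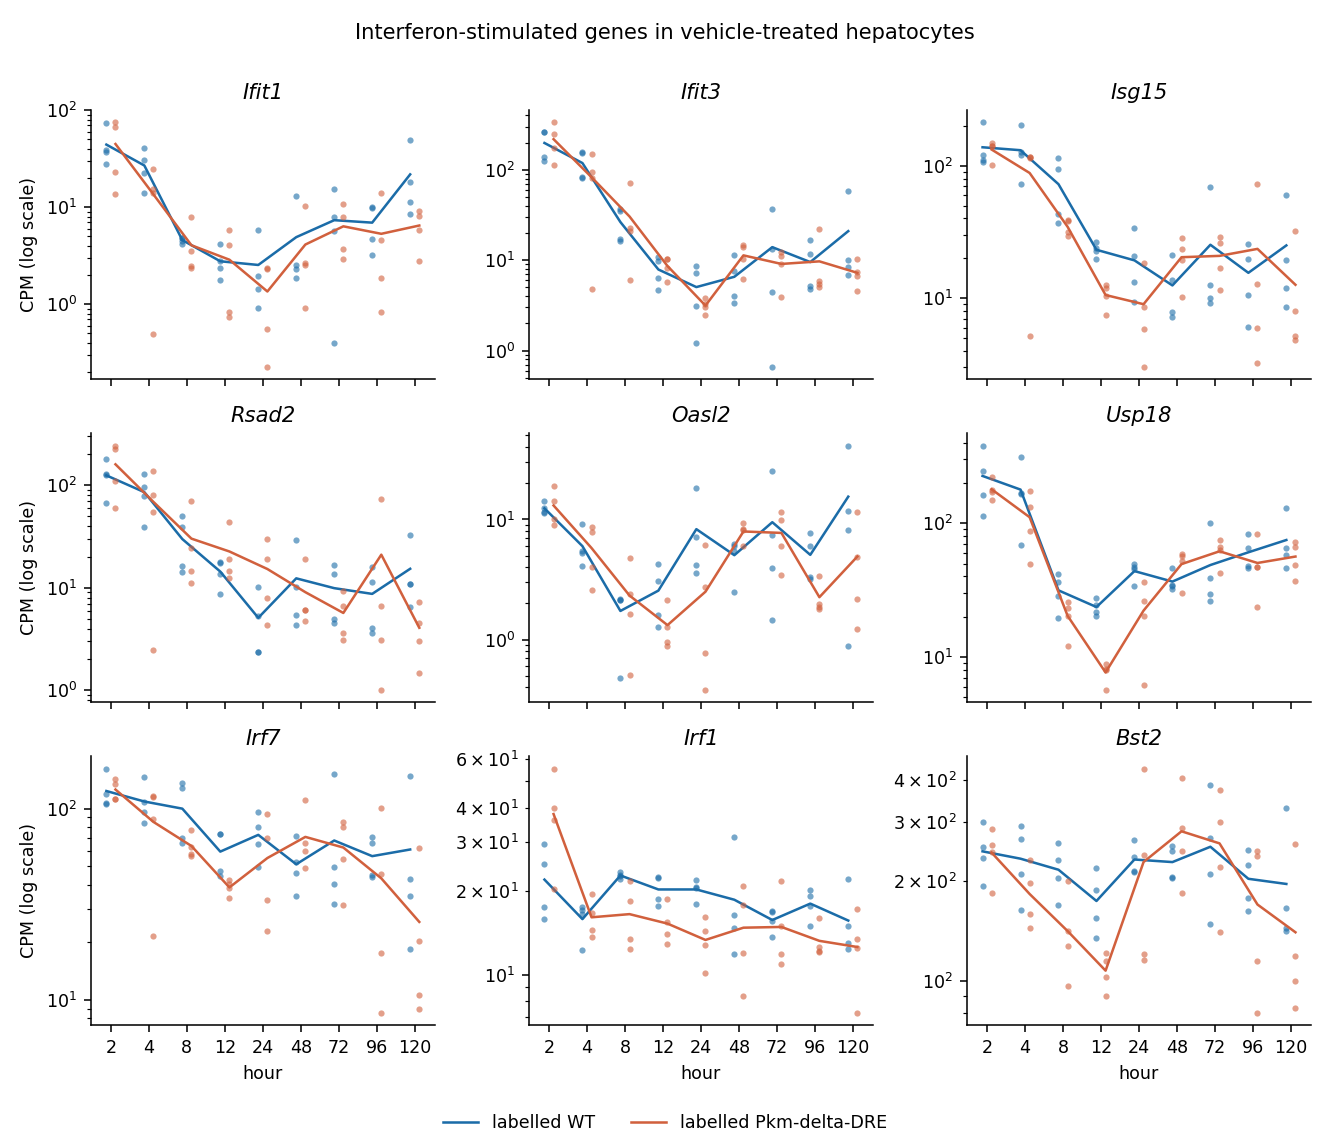
CPM on a log scale against hour in vehicle for the 9 genes, with 1 point per library and lines through the means of 4 libraries (blue, labelled WT, and orange, labelled Pkm-delta-DRE). Ifit1, Ifit3 and Rsad2 drop from 2 to 24 h, and Bst2 goes from 245 to its lowest mean of 174 CPM in blue. The lowest orange points at 4 h and the lone high orange points of Ifit3, Isg15 and Rsad2 at 96 h are the pair of libraries that correlated with another hour. For Oasl2 and Irf1 the highest orange point at 96 h is replicate 1.

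The TCDD comparisons asked whether the AHR ligand moved the same genes at a given hour. At 2 h the 2 genes with the highest means in TCDD relative to vehicle were Ifit1 and Rsad2, under both labels, and neither passed the test. Under WT, Ifit1 was at 27.8, 38.7, 73.96 and 36.8 CPM in vehicle and at 88.9, 179.5, 128.9 and 7.58 CPM in TCDD. Replicate 4 of TCDD stood below all vehicle libraries and the other TCDD libraries above them. Its Cyp1a1 was at 1.15 CPM. With all 8 libraries the log2 fold change was 1.19 (SE 0.70, adjusted p = 1.00), and without that replicate it was 1.57 (SE 0.32, adjusted p = 0.0539). Rsad2 was at 66.5, 128.2, 179.2 and 125.7 CPM in vehicle and at 188.9, 449.7, 318.4 and 37.1 CPM in TCDD, with replicate 4 again lowest and the others above every vehicle library. Its log2 fold change was 0.99 (SE 0.59, adjusted p = 1.00), and 1.34 (SE 0.33, adjusted p = 0.0677) without it.

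Under Pkm-delta-DRE at 2 h, Ifit1 was at 13.7, 67.7, 23.4 and 74.9 CPM in vehicle and at 40.5, 181.8, 131.5 and 131.9 CPM in TCDD. TCDD replicate 1 lay inside the vehicle range and the others above it, and the log2 fold change was 1.51 (SE 0.58, edgeR's unadjusted p = 0.0244, adjusted p = 0.282). Rsad2 was at 109.5, 227.7, 59.4 and 244.0 CPM in vehicle and at 161.1, 499.3, 279.6 and 396.5 CPM in TCDD, with a log2 fold change of 1.13 (SE 0.47, unadjusted p = 0.0376, adjusted p = 0.314). Between the labels the TCDD response differed by 0.35 (SE 0.97) for Ifit1 and 0.17 (SE 0.81) for Rsad2 on the log2 scale, neither past the threshold. Ifit3, the close relative of Ifit1, gave log2 -0.13 under WT and -0.18 under Pkm-delta-DRE, and the 7 genes other than Ifit1 and Rsad2 lay between log2 -0.42 and 0.35 over both labels. Of all genes tested at 2 h, 0% were called under either label. The summed macrophage markers overlapped at 2 h, at 232.8 to 388.9 CPM in vehicle and 222.1 to 366.2 CPM in TCDD under WT and at 231.3 to 534 and 150.2 to 633.5 CPM under Pkm-delta-DRE.

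At 8 h under the label WT, 5 of the 9 genes were called, 1 higher and 4 lower, where 37.4% of all genes were called, 23.8% higher and 13.6% lower. Ifit1 was higher. It was at 4.19, 4.85, 4.78 and 4.54 CPM in vehicle and at 6.27, 11.2, 9.75 and 7.37 CPM in TCDD, each above every vehicle library, 1.85-fold higher (log2 0.89, SE 0.26, adjusted p = 0.0161). The adjusted p was 0.0606 without TCDD replicate 2. Bst2, the tetherin gene, was lower, at 259.0, 231.1, 203.3 and 169.4 CPM in vehicle and 146.5, 136.9, 83.4 and 117.9 CPM in TCDD. The groups did not overlap, and TCDD was 1.82-fold lower (log2 -0.86, SE 0.19, adjusted p = 0.0037). Irf1 was at 22.1, 23.4, 22.7 and 22.9 CPM in vehicle and 14.9, 11.5, 12.3 and 15.6 CPM in TCDD, 1.72-fold lower with no overlap (log2 -0.78, SE 0.18, adjusted p = 0.00492).

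Isg15 and Irf7 were lower as well, but their groups overlapped. Isg15 was at 115.5, 94.9, 43.2 and 37.0 CPM in vehicle and at 40.1, 43.8, 24.7 and 21.6 CPM in TCDD, 2.29-fold lower (log2 -1.20, SE 0.36, adjusted p = 0.0168). Vehicle replicates 1 and 2 were well above the other two, and TCDD replicate 2 lay above the lower vehicle pair. Irf7 was at 135.9, 128.1, 70.1 and 66.5 CPM in vehicle and at 49.2, 79.97, 42.7 and 45.6 CPM in TCDD, 1.89-fold lower (log2 -0.92, SE 0.27, adjusted p = 0.0166). Vehicle replicates 1 and 2 were again the high ones, and without replicate 1 the adjusted p was 0.0604 for Isg15 and 0.0551 for Irf7. Leaving out TCDD replicate 3 gave 0.0629 and 0.0593, and leaving out vehicle replicate 2 gave 0.0521 for Irf7. In both arms replicates 1 and 2 also had more unmapped pairs (10.43% to 23.64%) than replicates 3 and 4 (7.321% to 9.735%), and within each of these pairs of replicates every TCDD library lay below every vehicle library for Isg15 and for Irf7. With that split as a term, chosen after seeing the data, the same 5 genes were called, Isg15 at log2 -1.10 (SE 0.14, edgeR's adjusted p = 9.472e-05) and Irf7 at -0.86 (SE 0.15, adjusted p = 0.000424), where 39.3% of all genes were. The split also separated the high from the low vehicle libraries of Isg15 and Irf7, so these p-values add no independent support. Ifit3 at log2 -0.21, Usp18 at -0.31, Oasl2 at -0.20 and Rsad2 at 0.37 did not pass. The median of the set was -0.31, against 0.00 for all genes tested.

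Other features of the libraries moved with treatment in that comparison. Of the pairs mapped to 1 place, 8.36% to 10.71% lay outside genes in 3 TCDD libraries, 21.95% in replicate 1 and 4.89% to 6.00% in the vehicle libraries. Hepatocyte markers summed to 65740 to 73540 CPM in TCDD and 74880 to 87840 CPM in vehicle, with 3 of 8 lower and 2 higher without overlap. Macrophage markers summed to 82.1 to 161.2 CPM in TCDD and 212.4 to 259.7 CPM in vehicle, with 6 of 11 markers lower without overlap and none at 0 in both groups. Stellate cell and fibroblast markers summed to 45.7 to 93.8 CPM in TCDD and 13.9 to 17.1 CPM in vehicle, with 1 of 6 higher without overlap and Lum at 0 in both groups. Over the series Reln had the highest median of that list, at 15.2 CPM, with Dcn next at 3.68 CPM, so 1 gene can carry this sum. With the fraction of pairs outside genes as a covariate, Bst2, Irf1 and Ifit1 were still called at 8 h and Isg15 (log2 -1.41) and Irf7 (log2 -0.81) were not. That fraction did not overlap between treatments here, so the covariate and treatment cannot be told apart. The part of the shifts in these marker sums was not tested.

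Under the label Pkm-delta-DRE at 8 h, none of the 9 genes was called, where 0.106% of all genes were. Bst2 was at 127.4, 96.4, 141.6 and 199.4 CPM in vehicle and between 119.4 and 193.9 CPM in TCDD (log2 -0.0048, SE 0.22), and Irf1 gave log2 -0.03 (SE 0.24). The groups overlapped for both. On the log2 scale the TCDD responses at 8 h, Pkm-delta-DRE minus WT, differed by 1.16 (SE 0.45, unadjusted p = 0.019) for Isg15, 0.75 (SE 0.34, unadjusted p = 0.0409) for Irf7, 0.74 (SE 0.30, unadjusted p = 0.0223) for Bst2 and 0.63 (SE 0.29, unadjusted p = 0.0405) for Irf1 by edgeR. None passed adjustment, with 0.292 as the smallest adjusted p, and 0% of all genes were called. The vehicle groups themselves gave log2 -1.07 for Isg15, -0.65 for Irf7, -0.61 for Bst2 and -0.46 for Irf1 between Pkm-delta-DRE and WT at 8 h, none past the threshold (adjusted p from 0.364 to 0.533).

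**Figure D3:**
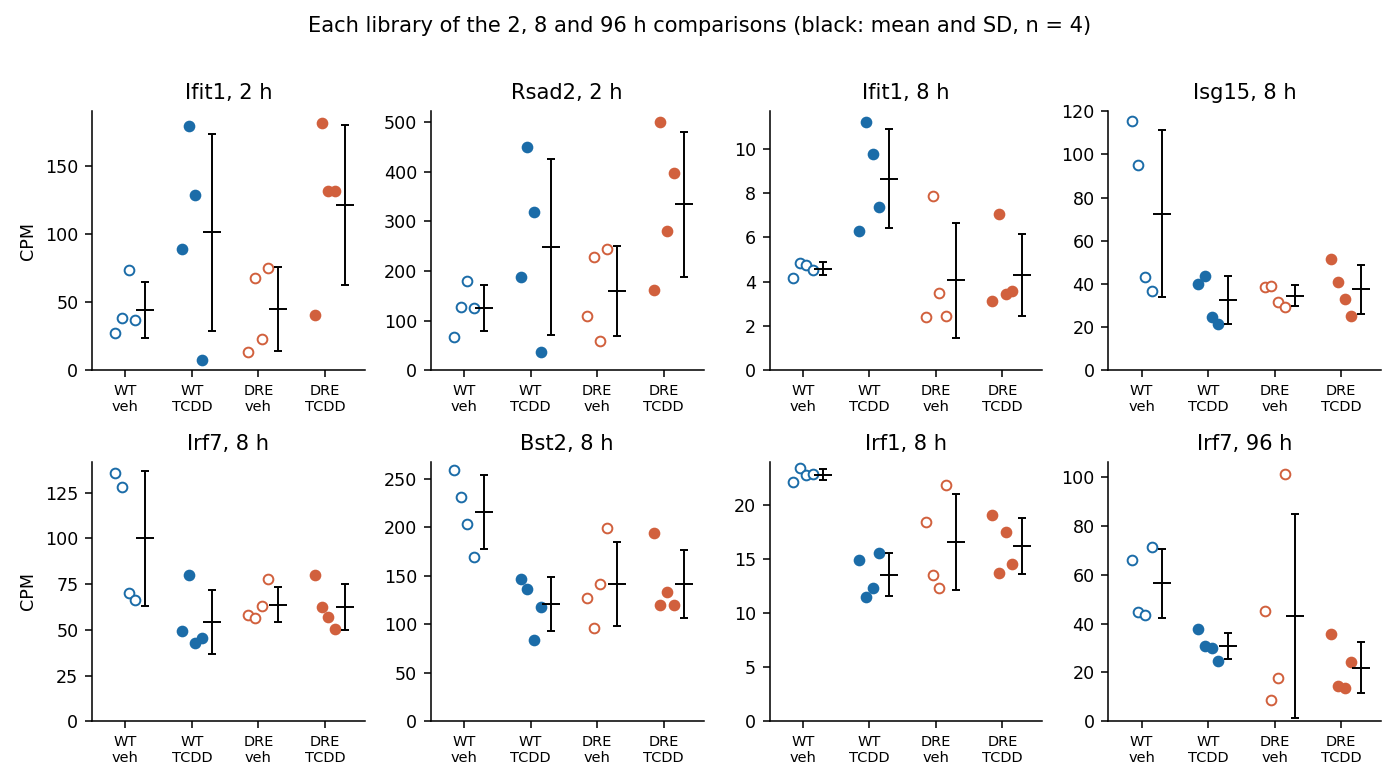
CPM in each library for the 2, 8 and 96 h comparisons discussed, with open points for vehicle and filled points for TCDD (blue, labelled WT; orange, labelled Pkm-delta-DRE) and black marks for the mean and SD of 4 libraries. At 8 h the WT groups do not overlap for Ifit1, Irf1 and Bst2 and do for Isg15 and Irf7, and at 2 h replicate 4 is the lone low TCDD point in blue.

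At 96 h under WT, Irf7 was the 1 gene called of the 9, where 15.1% of all genes were called and 5% were called lower. It was at 65.97, 44.9, 43.7 and 71.4 CPM in vehicle and at 37.9, 30.7, 30.1 and 24.7 CPM in TCDD, with no overlap and 1.75-fold lower (log2 -0.81, SE 0.18, adjusted p = 0.00694). Bst2 had an adjusted p of 0.0264 with a fold change under the threshold (log2 -0.47, SE 0.14). Isg15 gave log2 -1.09 (adjusted p = 0.0712), and log2 -1.37 (adjusted p = 0.0118) without vehicle replicate 3, whose Cyp1a1 was high. With the fraction of pairs outside genes as a covariate Irf7 was at log2 -0.70 and not called. In these libraries macrophage sums were 71 to 122.1 CPM in vehicle and 61.6 to 90.8 CPM in TCDD, with 1 of 11 lower without overlap and Timd4 at 0 in both groups, endothelial sums were 75.6 to 90.9 and 50.5 to 71.2 CPM with 3 of 8 markers lower without overlap, and cholangiocyte sums were 145.2 to 208.9 and 53.04 to 93.7 CPM with 2 of 3. Their part in the result was not tested.

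Over the 9 hours, 6 of 81 gene and hour combinations were thus called under WT and 9 had an unadjusted p under 0.05 by edgeR. By hour, such a p was found in 1.37% to 54.2% of all genes. None of the set was called at the remaining hours, where 0%, 0.0321%, 0.373%, 0.00763%, 0% and 1.46% of all genes were called, in order of hour. Under Pkm-delta-DRE edgeR called 0 of 81, DESeq2 also called 0, and 9 had an unadjusted p under 0.05 by edgeR. By hour, 1.29% to 14.2% of all genes had such a p. Of all genes, 0% were called at 4 h and 0.024%, 0.016%, 0.404%, 1.13%, 0.0793% and 0.633% from 12 h onward in order of hour. For the difference in response between the labels both tools called 0 of 81, with 7 at an unadjusted p under 0.05, and of all genes 0.00715% were called at 48 h, 0.00695% at 72 h and 0% in the 7 remaining comparisons.

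Without the pair of libraries that correlated with another hour, the values at 4 and 96 h under Pkm-delta-DRE moved and none was called. The log2 fold change of Rsad2 at 96 h was -2.44 with replicate 4 in the vehicle group and 0.24 without it. Isg15 went from -1.67 to 0.11, Ifit1 from -0.70 to 0.50 and Irf7 from -1.08 to -0.14. At 4 h Ifit1 went from 0.61 with replicate 4 to 0.20 without it and Isg15 from 0.36 to -0.04. For the labels in vehicle at 96 h Rsad2 went from 1.41 to -1.31 and Isg15 from 0.72 to -1.10, and for the response difference Rsad2 went from -1.90 to 0.72 and Isg15 from -0.57 to 1.16. The number of all genes called at 96 h was 11 with that replicate and 321 without it.

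**Figure D4:**
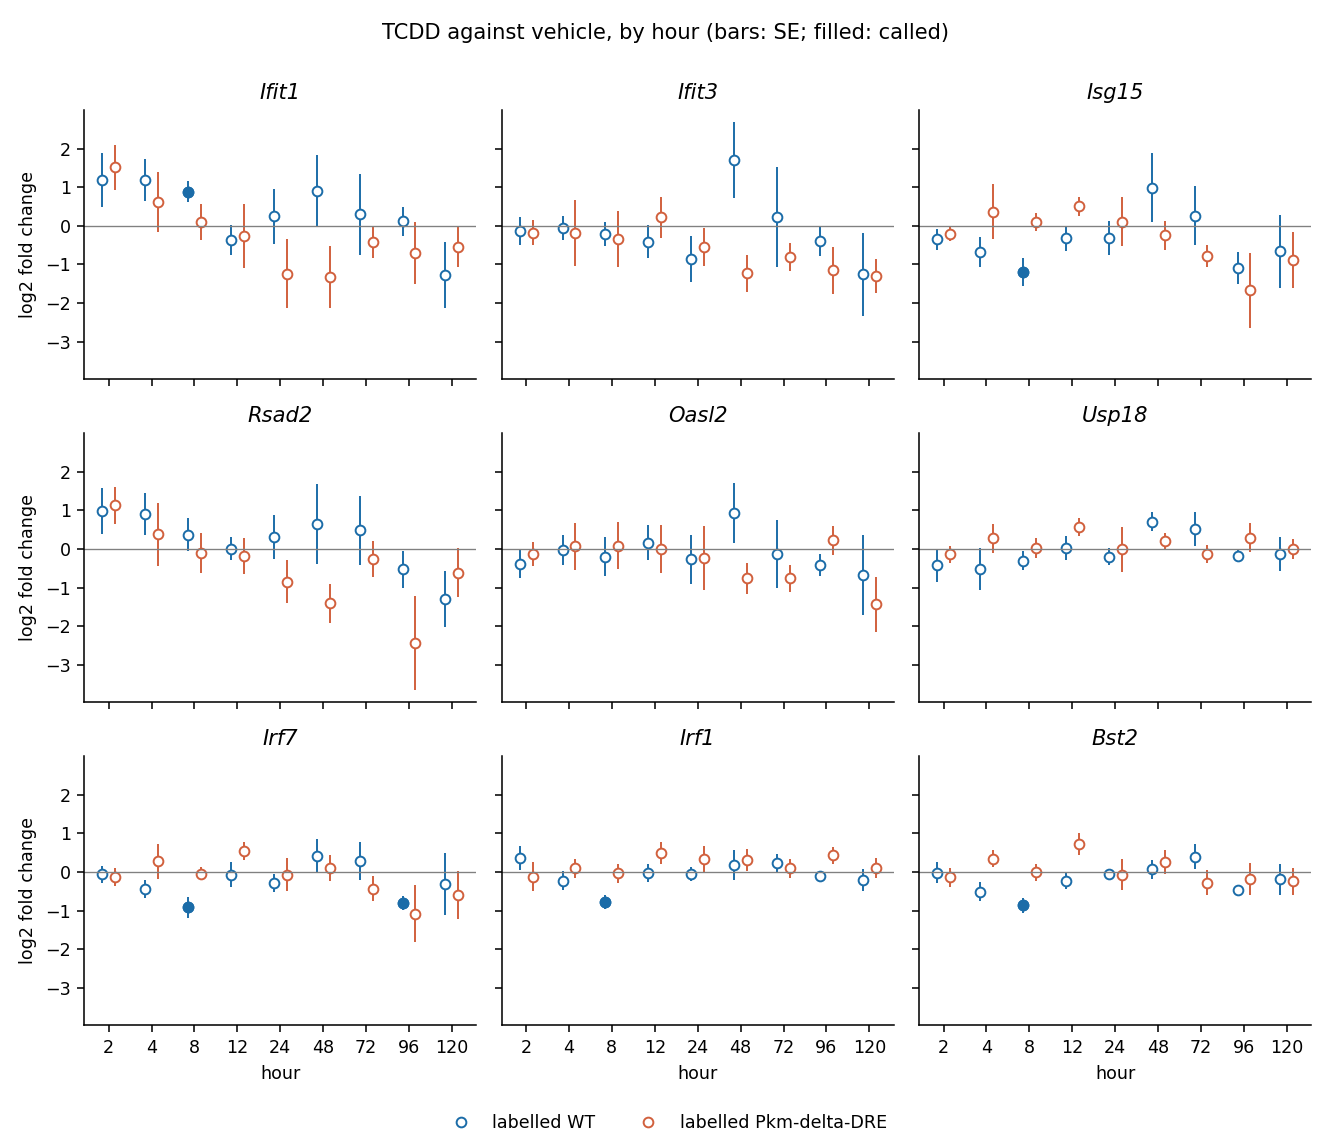
Log2 fold change of TCDD over vehicle against hour for each gene, with bars of 1 SE, blue for libraries labelled WT and orange for those labelled Pkm-delta-DRE, and filled points for called results. Filled points appear at 8 h for Ifit1, Isg15, Irf7, Irf1 and Bst2 and at 96 h for Irf7, all in blue.

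Comparing the labels in vehicle, 2 of 81 combinations were called, both at 12 h and both lower under Pkm-delta-DRE, where 3.68% of all genes were called at that hour. Usp18 was at 21.9, 24.7, 27.7 and 20.4 CPM under WT and at 8.10, 8.92, 5.67 and 8.01 CPM under Pkm-delta-DRE, 3.01-fold lower with a wide gap between the groups (log2 -1.59, SE 0.22, adjusted p = 0.0128). Isg15 was at 23.8, 26.6, 19.6 and 22.7 CPM and at 10.4, 11.9, 7.40 and 12.6 CPM, 2.15-fold lower without overlap (log2 -1.10, SE 0.22, adjusted p = 0.0299). Bst2 (log2 -0.66, adjusted p = 0.0634) and Irf7 (log2 -0.59, adjusted p = 0.115) also did not overlap and did not pass. Each of WT replicate 2 and Pkm-delta-DRE replicates 3 and 4 ended both calls when left out, with adjusted p from 0.0562 to 0.113, and Pkm-delta-DRE replicate 1 that of Isg15 (adjusted p = 0.0755). The macrophage sum was 140.4 to 279.1 CPM under WT and 127.4 to 146.2 CPM under Pkm-delta-DRE, with 2 of 11 markers lower without overlap and none at 0 in both groups. The stellate and fibroblast sum was 8.95 to 25.7 CPM and 30.1 to 37 CPM, with 1 of 6 higher without overlap, and the endothelial sum 112.3 to 229.4 and 210.3 to 271.3 CPM, with 1 of 8. The part of these shifts was not tested. At the other hours none of the set was called, where 0.0576% of all genes were called at 8 h and 0% at the 7 hours other than 8 and 12 h, and the 81 combinations held 15 with an unadjusted p under 0.05 by edgeR. Of all genes, 3.1% (120 h) to 25.3% (12 h) had such a p.

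Within groups several of these genes varied together. Each gene's log2 CPM was expressed as its deviation from its group mean, and over all libraries, which share depth and RNA quality between genes, Pearson's r of the 36 gene pairs ran from -0.08 to 0.86 with a median of 0.48. Both Pkm-delta-DRE vehicle libraries that correlated with each other's hour entered these values, and r without them is not given. The pairs Isg15 with Irf7 (0.86), Irf7 with Bst2 (0.84) and Ifit1 with Rsad2 (0.82) were highest. Ifit1 with Irf1 was at -0.08 and Ifit1 with Bst2 at 0.06, so the tightly linked pairs did not all link with each other. Isg15 was closest to the mean of the other 8, at 0.91, and Irf1 farthest, at 0.26. At 120 h, replicate 3 of WT TCDD, replicate 3 of WT vehicle and replicate 1 of Pkm-delta-DRE vehicle were each the highest of their 4 for all 9 genes. Replicate 1 of WT TCDD at 48 h and replicate 4 of Pkm-delta-DRE vehicle at 4 h were the lowest for all 9.

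**Figure D5:**
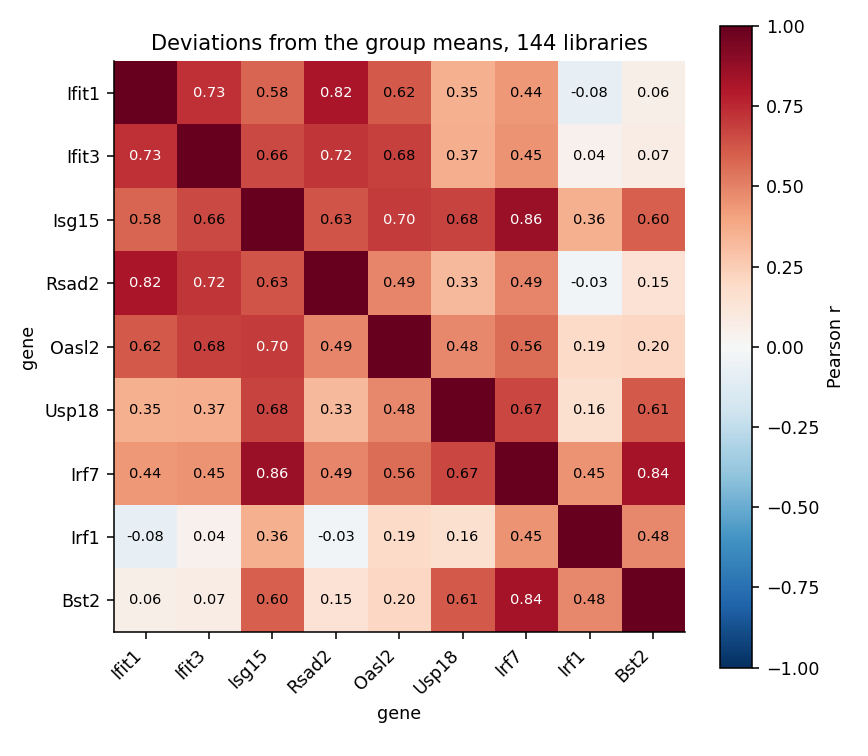
Pearson's r between the 9 genes over all libraries, computed on deviations of log2 CPM from the group means, with both axes listing the genes and colour giving r. Ifit1, Ifit3 and Rsad2 form pairs from 0.72 to 0.82, Isg15, Irf7 and Bst2 pairs from 0.60 to 0.86, and Irf1 stays at or below 0.48 with every other gene.

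The genes whose deviations were most like the mean of the set, among 11495 genes, were Dhx58 (r = 0.89), the RIG-I-like receptor LGP2, Zbp1 (0.88), a sensor of Z-form nucleic acid, Xaf1 (0.87), Parp12 (0.83), Rtp4 (0.83) and Uba7 (0.82), the enzyme that activates ISG15. Oasl1 (0.82), Igtp (0.82), Oas1a (0.79) and Apol9a (0.79) completed the first 10. Of these 10, 9 stand in the list of interferon pathway genes described next, and 22 of the first 30 do. That list was chosen with earlier results of these data known, and its share of the 11495 genes is not given. The overlap therefore describes the ranking and does not test whether the most similar genes are interferon genes.

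The wider pathway list holds ligands, receptors, kinases, transcription factors, sensors, negative regulators and targets. Few counts fell on the ligands. Ifnb1 had 55 counts in 16 libraries, with at most 12 in one, and Ifna4, Ifna5 and Ifng had 0 counts in every library. Ifnk was the most counted, with 284 counts in 75 libraries. These values limit what polyadenylated ligand RNA these cells held at harvest and say nothing of interferon protein.

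With time in vehicle, 48 of 88 pathway genes tested were called lower and 10 higher at 8 h under WT, beside 19.5% and 17.6% of all genes, and 43 and 18 of 92 at 120 h, beside 26.9% and 34.2%. Under Pkm-delta-DRE 45 and 6 of 86 were called at 8 h, beside 14.3% and 13.3%, and 53 and 10 of 90 at 120 h, beside 27.9% and 33.2%. The DNA-binding partner Irf9 was lower at all 4 hours under both labels, from 150 to 42.8 CPM between 2 and 120 h under WT (log2 -2.01, SE 0.20, adjusted p = 1.27e-05) and from 164 to 42.8 CPM under Pkm-delta-DRE (log2 -2.14, SE 0.24, adjusted p = 1.58e-05). Stat2 was lower at 8 h, by log2 -1.54 under WT and -1.11 under Pkm-delta-DRE, and at 24 h under WT (log2 -0.63). At 120 h it was not called under either label. Of the receptor pair, Ifnar1 was higher at 120 h (log2 0.67 under WT and 0.65 under Pkm-delta-DRE) and Ifnar2 lower (log2 -0.71 and -1.26). Ifnlr1, a subunit of the interferon lambda receptor, went from 0.16 to 7.46 CPM under WT (log2 5.33) and from 0.59 to 7.27 CPM under Pkm-delta-DRE (log2 3.41), and the double-stranded RNA sensor Tlr3 from 0.47 to 11.7 CPM under WT (log2 4.44).

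Not all targets fell. Ifit2, of the same family as Ifit1 and Ifit3, was higher at 120 h under both labels, at 21.1 CPM from 1.88 under WT (log2 3.29, SE 0.66, adjusted p = 0.00131) and at 18.1 CPM from 1.69 under Pkm-delta-DRE (log2 3.26, SE 0.60, adjusted p = 0.000786). Its neighbour Ifit3b went the way of Ifit3, log2 -5.40 under WT and -6.50 under Pkm-delta-DRE at 24 h. Among targets of interferon gamma and antigen presentation genes, 12 of 19 tested were called lower at 8 h and 15 at 120 h under WT, 18 at 120 h under Pkm-delta-DRE, and 0 higher, where the shares of all genes called lower were 19.5%, 26.9% and 27.9% and higher 17.6%, 34.2% and 33.2%. Cxcl9, a T cell chemokine, was at 141.9 CPM at 2 h and 0.92 CPM at 120 h under WT, and at 128.9 and 0.0276 CPM under Pkm-delta-DRE, the last value resting on 3 counts in 4 libraries. Gbp2, a guanylate-binding protein, was lower by log2 -4.00 under WT and -5.80 under Pkm-delta-DRE at 120 h. Tlr4 was at 0 in all 4 WT vehicle libraries at 2 h and at 2.58 CPM at 120 h, and Ifitm1 at 1.63 CPM at 2 h and 0 in all 4 at 24 h.

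With TCDD, 40 of 85 pathway genes tested were called at 8 h under WT, 16 higher (18.8%) and 24 lower (28.2%), beside 23.8% and 13.6% of all genes. Parp9, an ADP-ribosyltransferase, went from 7.64 to 23.6 CPM (log2 1.59, SE 0.32, adjusted p = 0.00241), Ddx60, an RNA helicase, from 0.77 to 3.01 CPM (log2 1.92) and the endotoxin receptor Tlr4 from 0.42 to 1.73 CPM (log2 2.01). Ifitm2, an entry inhibitor, was lower at 8 h (log2 -1.19), 96 h (log2 -0.94) and 120 h (log2 -1.30), and the adaptor Sting1 was lower at 8 h (log2 -1.37, from 2.18 to 0.85 CPM). Oas1g was lower at 96 h (log2 -1.54), where 5 of 88 pathway genes (5.68%) were called higher and 11 (12.5%) lower, beside 10.1% and 5% of all genes. Under Pkm-delta-DRE edgeR called 0 pathway genes at every hour and DESeq2 called 0.515% of gene and hour tests higher and 0.129% lower. Between the labels in vehicle, 9 of 81 (11.1%) were called at 12 h, all lower under Pkm-delta-DRE, where 2.47% of all genes were called lower, among them Oasl1 at log2 -2.03, Dhx58 at -1.36 and Irf5 at -1.29.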

How the data were processed

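RNA from primary mouse hepatocytes was sequenced as unstranded paired reads, and per the labels the submitters' processing used FastQC 0.11.3, Trimmomatic 0.39 and STAR 2.7 with GRCm39. The deposited files hold raw read counts per gene as the authors' aligner wrote them, without normalisation, and the column that ignores strand was used. Lines that name no gene (16.77% to 48.01% of each file) stayed out of library sizes. The depth on genes was 13588848 to 30719161 counts (median 18011825). Groups came from the labels of genotype, treatment and hour. Each comparison was fitted on its own libraries in edgeR 4.0.16 (R 4.3.3) with its default filter (count minimum 10, total 15), TMM scaling and the robust quasi-likelihood test. P-values were adjusted by the Benjamini-Hochberg method across every gene tested, and a gene was called where the adjusted p was below 0.05 and it changed 1.5-fold or more. Time in culture was tested in vehicle against 2 h, and the 2 labels' responses through the interaction. CPM used TMM-scaled library sizes, and SE was the log2 fold change over the square root of F. Likeness used log2 CPM with a prior count of 2, among named genes with a mean of at least 1 CPM, leaving out predicted and clone-named genes.

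Symbols, exon lengths and promoters came from GRCm38 annotations, whose coordinates are not those of the build the reads were aligned to. DESeq2 1.42.0, other scalings and filters, a covariate and smaller sample sets were the alternatives. The rule for naming pathway genes took, from each family of comparisons, up to 3 called genes that rose most and 3 that fell most among those with groups that did not overlap, and added Stat2, Irf9, Ifnb1, Ifnar1 and Ifnar2. A further gene that the rule names is not reported here. The 10 most like genes were ranked by Pearson's r. Other ligands and control genes were chosen after their values were seen. The gene set and the lists were chosen with earlier results of these data known. The fits were tested on counts simulated with the same spread for every gene and without deviating libraries, which differs from these data.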

Additional observations from a re-analysis of the deposited data

Results flagged for a closer look

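Within each group of 4 libraries, 38 of 324 sets of values (11.7%) held 1 library whose gap to its nearest neighbour passed Dixon's 95% limit. Chance gives about 1 in 20 for independent, normally distributed sets. These genes varied together over the same libraries, so the share flagged cannot be set against that rate. The flagged sets came from 19 libraries, and each value below is in CPM, the highest of its group unless said to be the lowest, with the nearest other value.

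WT TCDD replicate 3 at 120 h held Ifit1 at 25.9 (nearest 4.01), Ifit3 at 28.1 (nearest 2.82), Isg15 at 47.6 (nearest 6.81), Irf7 at 126.98 (nearest 24.8), Oasl2 at 26.6 (nearest 4.64), Rsad2 at 15.8 (nearest 4.23), Usp18 at 132.2 (nearest 50.7), Irf1 at 22.3 (nearest 11.7) and Bst2 at 320.6 (nearest 132.99). WT vehicle replicate 4 at 72 h held Isg15 at 69.3 (nearest 12.7), Irf7 at 151.3 (nearest 49.5) and Usp18 at 100.1 (nearest 38.8). WT vehicle replicate 3 at 120 h held Ifit3 at 58.7 (nearest 9.95), Rsad2 at 32.98 (nearest 10.96) and Bst2 at 330.8 (nearest 165.2). WT TCDD replicate 4 at 72 h held Ifit1 at 27.2 (nearest 4.03), Ifit3 at 54.3 (nearest 5.24) and Rsad2 at 44.4 (nearest 4.302). Pkm-delta-DRE vehicle replicate 4 at 96 h held Ifit3 at 22.4 (nearest 5.901), Isg15 at 72.3 (nearest 12.8) and Rsad2 at 73.4 (nearest 6.59). Pkm-delta-DRE vehicle replicate 1 at 96 h held Oasl2 at 3.39 (nearest 1.96) and Irf1 at 16.1 (nearest 12.6). Pkm-delta-DRE TCDD replicate 2 at 8 h held Ifit1 at 7.05 (nearest 3.57) and Rsad2 at 44.3 (nearest 23.8). Pkm-delta-DRE TCDD replicate 1 at 48 h held Irf7 at 134.3 (nearest 68.8) and Bst2 at 579.9 (nearest 291.7).

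WT vehicle replicate 2 at 2 h held Isg15 at 212.7 (nearest 120.5). WT vehicle replicate 4 at 8 h held Oasl2 at 0.484 (lowest, nearest 2.13). WT vehicle replicate 4 at 48 h held Ifit1 at 12.97 (nearest 2.52). WT TCDD replicate 2 at 4 h held Irf7 at 122.95 (nearest 73.6). WT TCDD replicate 4 at 96 h held Rsad2 at 9.505 (nearest 4.63). Pkm-delta-DRE vehicle replicate 1 at 2 h held Isg15 at 101.6 (lowest, nearest 140.2). Pkm-delta-DRE vehicle replicate 4 at 4 h held Isg15 at 5.16 (lowest, nearest 115.5). Pkm-delta-DRE vehicle replicate 2 at 48 h held Rsad2 at 19.3 (nearest 6.12). Pkm-delta-DRE vehicle replicate 1 at 120 h held Isg15 at 32.4 (nearest 7.99). Pkm-delta-DRE TCDD replicate 3 at 24 h held Ifit1 at 1.52 (nearest 0.463). Pkm-delta-DRE TCDD replicate 3 at 48 h held Rsad2 at 1.91 (lowest, nearest 4.09).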

How the results depend on the processing

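No paired analysis was possible because the labels give no replicate number, isolation or animal that would tie libraries across groups. Leaving out 1 replicate number in 1 arm of every comparison gave, for the 9 genes, 4 to 7 calls for TCDD under WT, 20 to 26 for time under WT, 28 to 33 for time under Pkm-delta-DRE, 0 to 3 for the labels in vehicle, and 0 for TCDD under Pkm-delta-DRE and for the response difference. For the pathway list, as percentages of gene and hour tests called higher and lower, it gave 2 to 2.36 and 3.6 to 4.88 for TCDD under WT (2.66 and 4.56 with all libraries), 0 to 0.763 and 0 to 0.885 for TCDD under Pkm-delta-DRE (0 and 0), 0 and 0 to 0.243 for the response difference (0 and 0), 11.5 to 12.9 and 45.5 to 49.7 for time under WT (13 and 51.2), 5.92 to 9.04 and 40.8 to 49.4 for time under Pkm-delta-DRE (8.78 and 49.9), and 0 to 0.504 and 0 to 1.39 for the labels in vehicle (0 and 1.15).

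A single fit of all libraries of a label gave 2 calls for TCDD under WT in place of 6, with pathway percentages of 1.03 higher and 2.41 lower, and 0.468 lower for TCDD under Pkm-delta-DRE. A fit of the whole series gave 0.115 lower for the response difference. DESeq2 gave 0.515 higher and 0.129 lower for TCDD under Pkm-delta-DRE and 0.255 higher and 2.68 lower for the labels in vehicle. Without a filter on low counts, TCDD under Pkm-delta-DRE had 1 call in the set (Rsad2 at 2 h) and pathway percentages of 1.23 and 0.336, the response difference had 1 call (Isg15 at 8 h) and 0.111 lower, and the labels in vehicle had 4 calls in place of 2 and 1.79 lower. The pair of libraries that correlated with another hour, left out after seeing the data, gave 0.128 higher for TCDD under Pkm-delta-DRE. Leaving out the WT libraries with unusual Cyp1a1 or strand balance, also chosen after seeing the data, gave 8 calls for TCDD under WT. It did not cover TCDD replicate 4 at 4 h. The split by unmapped pairs as a term at 2 to 12 h gave 6.

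With the fraction of pairs outside genes as a covariate there were 3 calls for TCDD under WT and 11 for time under WT in place of 23. The pathway percentages were 0.123 higher for TCDD under Pkm-delta-DRE, 5.65 higher and 27.2 lower for time under WT, 4.92 higher for time under Pkm-delta-DRE, and 0.122 higher and 2.69 lower for the labels in vehicle. The covariate reversed time results under WT, to log2 0.090 for Irf7 at 72 h and, at 120 h, 0.28 for Isg15, 0.18 for Usp18, 1.28 for Irf7, 0.29 for Rsad2, 0.81 for Ifit3 and 1.07 for Ifit1, and under Pkm-delta-DRE to 0.39 for Bst2 at 120 h. The covariate did not overlap between 2 h and those hours under the label concerned, so it cannot be told apart from time. The cause was not tested. Of 56 called time results 30 were called under every alternative run, and of 8 called TCDD or label results 2 were, Bst2 and Irf1 at 8 h under WT. A difference that missed the threshold with 4 libraries a group is not shown to be absent.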
